A study of Rattus norvegicus with 16 samples.

Results

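The genes that carry glucose and lactate across cell membranes were followed in the retina of newborn rats. The set holds 6 genes: the glucose transporters Slc2a1 (GLUT1) and Slc2a3 (GLUT3), the monocarboxylate transporters Slc16a1 (MCT1), Slc16a3 (MCT4) and Slc16a7 (MCT2), and Bsg (basigin). They were chosen by symbol, as the probe sets whose annotation gives 1 gene symbol equal to a member's, and each of the 6 had 1 such probe set. All 6 were therefore measured, among 14324 genes in all. The data come from a rat model of oxygen-induced retinopathy, with 16 arrays in 8 groups of 2. The tested groups were retinae of Sprague Dawley (SD) and of Fischer 344 (F344) pups kept in cyclic hyperoxia until post-natal day 6 or day 5, and their controls were pups of the same strain and age kept in room air. Cyclic hyperoxia began within 12 h of birth and alternated between 80% and 21% oxygen every 24 h. The labels do not say which oxygen level preceded each day. Each array held RNA of whole retinae pooled from several rats, so that p values measure only the spread between pools, and a change in the number of cells of a type cannot be told apart from a change in RNA per cell.

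Glucose enters cells down its gradient through the GLUT proteins. GLUT1 serves capillary endothelium, pigment epithelium and the neural retina, and GLUT3 is the main form of neurons. The retina turns much of its glucose into lactate even when oxygen is present. Lactate crosses membranes together with a proton through the MCT proteins: MCT4 is typical of glycolytic cells that export lactate, MCT1 works in either direction, and MCT2 has a high affinity and is found on neurons. Basigin is a membrane glycoprotein that MCT1 and MCT4 need to reach the cell surface. When oxygen is low, hypoxia-inducible factor (HIF) escapes degradation and raises transcription of many glycolytic genes, and Slc2a1 and Slc16a3 are textbook targets.

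Values are log2 expression values after normalization by the authors, and the level of one probe set was not set against that of another. Array medians lay between 5.452 and 5.524 and the 2 arrays of a group correlated at 0.9869 to 0.9965 (Pearson's r across genes, a description only). In the day 6 hyperoxia group of F344, replicate 2 had the highest median and the lowest interquartile range (2.813). The 2 arrays of this group had the lowest correlation with each other (0.9869), a value that both share and that singles out neither. The day 6 differences that rest on replicate 2 are also given without it, as the array that stood apart. Leaving out replicate 2 raised the number of genes called on day 6 in SD and lowered it in F344 and in the average over strains. The SD contrast holds no F344 array. Leaving out either array of that F344 group takes its spread out of the shared estimate, so the SD change is not particular to replicate 2. The retinal markers Crx, Nrl, Rcvrn, Pax6, Rlbp1 and Stmn2 all lay above the array medians on every array, the lowest at 9.27. The probe sets of Slc2a1 (10871521), Slc2a3 (10865349), Slc16a1 (10818090), Slc16a3 (10740209) and Bsg (10900803) had means over the 16 arrays of 9.613, 7.461, 7.136, 7.539 and 9.112. Slc16a7 (10902868) averaged 5.755, close to the array medians, where array values hold much background and differences are compressed.

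Slc16a3, the lactate exporter, was the member whose level changed with oxygen. On day 5 its level in SD retina was 5.88 and 6.20 in hyperoxia, against 7.88 and 7.35 in room air. In F344 retina of day 5 it was 6.46 and 6.60 in hyperoxia, against 7.73 and 8.18 in room air. In each strain both hyperoxia arrays lay below both room air arrays, as they did in both strains for 6.56% of all genes. The drop was 2.98-fold in SD (log2 difference −1.58, 95% confidence interval −2.06 to −1.09, limma with Benjamini-Hochberg adjustment over all genes, adjusted p = 0.0115) and 2.68-fold in F344 (−1.42, −1.90 to −0.94, adjusted p = 0.021). It was 1 of 6 members called lower at an adjusted p under 0.05 in each strain, where 0.0628% of all genes were called lower in SD and 0.126% in F344. No other member had an unadjusted p under 0.05 in either strain, against 9.05% of all genes in SD and 8.36% in F344. Averaged over both strains the difference was −1.50 ± 0.16 (SE, 2 arrays in each of the 4 groups, adjusted p = 0.000196), again the only member called, against 0.209% of all genes.

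The averaged drop remained called whichever array was left out. Within a strain the difference stayed below 0 whichever array was left out (−1.84 to −1.31 in SD, −1.65 to −1.19 in F344). The call within a strain was lost in some of these fits. The SD call was lost without SD hyperoxia replicate 1 (log2 difference −1.41, adjusted p = 0.373) or replicate 2 (−1.74, 0.0552) and without SD room air replicate 1 (−1.31, 0.164). The F344 call was lost without F344 hyperoxia replicate 1 (−1.35, adjusted p = 0.161) or replicate 2 (−1.49, 0.214) and without F344 room air replicate 2 (−1.19, 0.122). In the same F344 contrast 2 of 7 measured erythroid markers were also called lower, the globins Hbb (−1.19, adjusted p = 0.0152) and Hbb-b1 (−1.36, 0.0168), each in 13 of 16 fits that left out 1 array. Globin probes can share targets. The summed linear level of the 7 on day 5 was 216 to 225 in F344 hyperoxia against 320 to 447 in F344 room air, and 309 to 367 in SD hyperoxia against 276 to 326 in SD room air, and 5 of the 7 had a mean below the lowest array median. Their part in the Slc16a3 result was not tested.

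**Figure D1:**
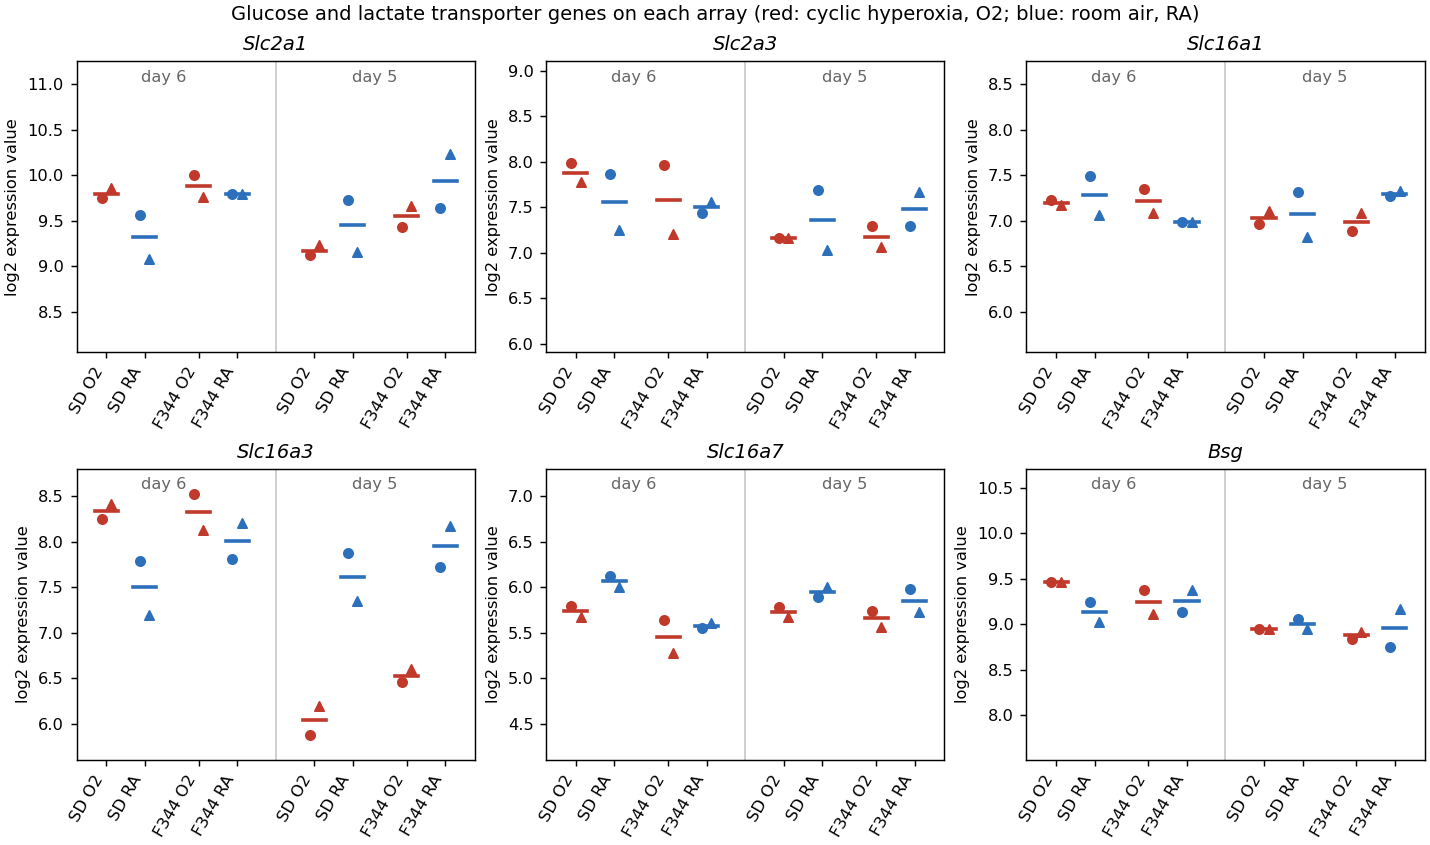
Log2 expression values of the 6 genes on each of the 16 arrays, by strain and exposure, with day 6 left of day 5 in each panel. Circles are replicate 1, triangles replicate 2 and bars group means, and every panel spans the same log2 range. Slc16a3 in hyperoxia on day 5 lies between 5.88 and 6.60, below its other 12 arrays.

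A day later Slc16a3 was no longer low in hyperoxia. On day 6 SD retina had 8.25 and 8.42 in hyperoxia, against 7.79 and 7.20 in room air, and the arrays did not overlap. F344 retina had 8.53 and 8.13 in hyperoxia, against 7.81 and 8.21 in room air, and the arrays overlapped. Averaged over both strains Slc16a3 was 1.49-fold higher in hyperoxia (0.58 ± 0.16 SE, interval 0.24 to 0.92, adjusted p = 0.0424), 1 of 6 members called higher, where 4.01% of all genes were. This call stood close to its threshold. It held in 6 of 16 fits that left out 1 array, with adjusted p values of 0.0317 to 0.156, and was lost without either hyperoxia array of day 5 in either strain, either SD hyperoxia array of day 6, either F344 room air array of day 6, F344 hyperoxia replicate 1 or SD room air replicate 2 of day 6. Without F344 hyperoxia replicate 2, the array that stood apart, it was 0.68 (adjusted p = 0.0469). Within a strain the day 6 difference was 0.84 in SD (interval 0.36 to 1.32, adjusted p = 0.0588) and 0.32 in F344 (−0.16 to 0.80, adjusted p = 0.495; 0.52, adjusted p = 0.424, without the array that stood apart), and neither was called. Called in either direction were 0 of 6 members in each strain, where limma called 2.79% of all genes in SD and 1.19% in F344. At an unadjusted p under 0.05 there were 4 members in SD, against 18.8% of all genes, and 0 in F344, against 17.6%. In fits that left out 1 array the SD difference of Slc16a3 ran from 0.55 to 1.13. Among these fits it was called only without 1 or the other F344 hyperoxia array of day 6, arrays that the SD difference does not hold.

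The oxygen effect on Slc16a3 differed between the days by 2.08 ± 0.23 (SE, day 6 minus day 5, averaged over strains, interval 1.59 to 2.56, adjusted p = 0.000255), and 1 of 6 members was called higher in this contrast, against 0.182% of all genes. It was 2.18 (adjusted p = 0.000279) without the array that stood apart, and remained called in all 16 fits that left out 1 array. In room air its day 6 minus day 5 difference was −0.03 (adjusted p = 0.963). In hyperoxia, SD retina averaged 8.34 on day 6 and 6.04 on day 5, and F344 retina 8.33 on day 6 and 6.53 on day 5. Ordered from high to low, the group means of Slc16a3 were 8.34 (SD hyperoxia, day 6), 8.33 (F344 hyperoxia, day 6), 8.01 (F344 room air, day 6), 7.95 (F344 room air, day 5), 7.61 (SD room air, day 5) and 7.50 (SD room air, day 6), then 6.53 (F344 hyperoxia, day 5) and 6.04 (SD hyperoxia, day 5). Neighbours among the first 6 overlapped in their arrays, and the last 2 stood below them and apart from each other. The span of 2.30 between the highest and the lowest group, 4.91-fold, was larger than that of 99.9% of genes, whose median span was 0.41.

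The strains did not differ detectably in their response. The SD minus F344 difference of the Slc16a3 oxygen effect was 0.52 on day 6 (interval −0.16 to 1.20, adjusted p = 0.573) and −0.15 on day 5 (−0.84 to 0.53, adjusted p = 0.967). Without the array that stood apart the day 6 value was 0.32, and those of the other 5 genes lay between −0.44 and 0.28. Limma called 0 of 6 members on either day, also at an unadjusted p under 0.05, where 0.0559% of all genes were called on day 6 and 0.0% on day 5, and where 11.5% and 6.14% of genes had an unadjusted p under 0.05. The intervals for the other 5 genes reached from −0.81 to 1.02 on day 6 and from −0.64 to 0.86 on day 5, so that strain differences near 2-fold in either response are not excluded for all of them.

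**Figure D2:**
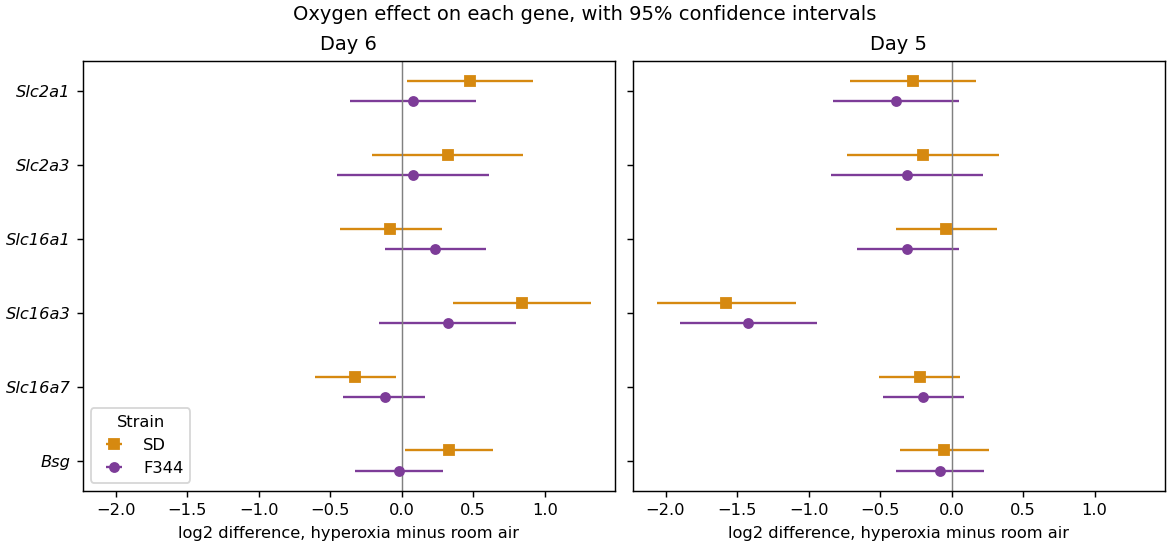
Log2 difference between cyclic hyperoxia and room air for each gene (points) with 95% confidence intervals (lines), day 6 left and day 5 right, SD as squares and F344 as circles. On day 5 the Slc16a3 intervals end at −1.09 in SD and −0.94 in F344, and those of the other 5 genes include 0.

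Slc2a1, the main glucose transporter of the barrier and the neural retina, was not called in any oxygen contrast. On day 5 it had 9.12 and 9.23 in SD hyperoxia against 9.73 and 9.16 in SD room air, and 9.43 and 9.66 in F344 hyperoxia against 9.64 and 10.23 in F344 room air. The arrays overlapped in both strains. The differences were −0.27 in SD (interval −0.71 to 0.17) and −0.39 in F344 (−0.83 to 0.05), and −0.33 averaged over strains (−0.64 to −0.02, adjusted p = 0.409), which bounds an averaged drop at 0.64 on the log2 scale. On day 6 Slc2a1 had 9.75 and 9.86 in SD hyperoxia, against 9.56 and 9.08 in SD room air, without overlap. F344 retina of day 6 had 10.00 and 9.76 in hyperoxia, against 9.79 and 9.80 in room air. The day 6 difference was 0.48 in SD (0.04 to 0.92, adjusted p = 0.223) and 0.08 in F344 (adjusted p = 0.871, 0.20 without the array that stood apart). The day 6 minus day 5 difference of the effect, 0.61 ± 0.21 (SE, interval 0.17 to 1.05), had an unadjusted p of 0.00956 and an adjusted p of 0.417 (0.67, adjusted p = 0.309, without the array that stood apart). With Slc16a3 this made 2 of 6 members at an unadjusted p under 0.05, against 8.46% of all genes. The Slc2a1 group means ran from 9.94 in F344 room air of day 5 to 9.17 in SD hyperoxia of day 5. Neighbours in that order overlapped except F344 room air of day 6 (9.80) and the next lower, F344 hyperoxia of day 5 (9.55).

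Slc2a3, the neuronal glucose transporter, was not called in any contrast. Its day 5 arrays read 7.16 and 7.16 in SD hyperoxia against 7.69 and 7.03 in SD room air, and 7.29 and 7.06 in F344 hyperoxia against 7.29 and 7.67 in F344 room air. On day 6 they read 7.98 and 7.78 in SD hyperoxia against 7.86 and 7.25 in SD room air, and 7.96 and 7.20 in F344 hyperoxia against 7.44 and 7.56 in F344 room air. Hyperoxia and room air overlapped in SD on both days and in F344 on day 6, where the 2 hyperoxia pools alone spanned the whole room air range. In F344 on day 5 the ranges met at 7.29 with the hyperoxia arrays below. Averaged over strains the oxygen effect was 0.20 on day 6 (interval −0.17 to 0.57, adjusted p = 0.531) and −0.25 on day 5 (−0.63 to 0.12, adjusted p = 0.613). The day 6 value was 0.39 without the array that stood apart. Neighbours in the order of its 8 group means all overlapped, from 7.88 in SD hyperoxia of day 6 down to 7.16 in SD hyperoxia of day 5.

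Slc16a1, which carries lactate in either direction, and Slc16a7, the neuronal high-affinity form, showed small differences. Slc16a1 read 6.96 and 7.11 in SD hyperoxia of day 5 against 7.32 and 6.82 in room air, and 6.89 and 7.09 in F344 hyperoxia against 7.27 and 7.33 in room air. Its F344 arrays did not overlap, while SD hyperoxia lay inside the SD room air range. On day 6 Slc16a1 read 7.23 and 7.17 in SD hyperoxia against 7.49 and 7.06 in room air, and 7.35 and 7.09 in F344 hyperoxia against 6.99 and 6.99 in room air. Its averaged effect was 0.08 on day 6 (interval −0.17 to 0.33; 0.14 without the array that stood apart) and −0.17 on day 5 (−0.42 to 0.08), which bounds a change of either sign at 0.42 on the log2 scale. Slc16a1 in the order of its group means ran from 7.30 in F344 room air of day 5 to 6.99 in F344 room air of day 6, and all neighbours overlapped.

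Slc16a7 had negative averaged differences on both days and no call. On day 6 it read 5.80 and 5.68 in SD hyperoxia against 6.13 and 6.00 in room air, and 5.64 and 5.28 in F344 hyperoxia against 5.55 and 5.61 in room air. On day 5 it read 5.79 and 5.67 in SD hyperoxia against 5.90 and 6.01 in room air, and 5.74 and 5.57 in F344 hyperoxia against 5.98 and 5.73 in room air. The SD arrays did not overlap on either day and the F344 arrays did on both. Averaged over strains its difference was −0.22 on day 6 (interval −0.43 to −0.02, adjusted p = 0.163, −0.14 without the array that stood apart) and −0.21 on day 5 (−0.41 to −0.01, adjusted p = 0.429). The day 6 value was called in 1 of 16 fits that left out 1 array (F344 hyperoxia replicate 1 of day 6 was not in it, −0.31, adjusted p = 0.027). Its 8 group means overlapped neighbour to neighbour, from 6.07 in SD room air to 5.46 in F344 hyperoxia, both of day 6.

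Bsg, the partner that brings MCT1 and MCT4 to the membrane, was not called in any contrast. It read 8.95 and 8.95 in SD hyperoxia of day 5 against 9.06 and 8.95 in room air, and 8.84 and 8.92 in F344 hyperoxia against 8.75 and 9.17 in room air. The averaged difference was −0.07 (interval −0.29 to 0.15, adjusted p = 0.858), which leaves room for a drop of at most 0.29 on the log2 scale. On day 6 Bsg read 9.47 and 9.46 in SD hyperoxia, against 9.25 and 9.02 in room air, without overlap (0.33, 0.02 to 0.64, adjusted p = 0.229). F344 hyperoxia of day 6 read 9.38 and 9.11, against 9.14 and 9.38 in room air (−0.02, −0.33 to 0.29; 0.12 without the array that stood apart). SD hyperoxia of day 6 was the highest Bsg group at 9.47 and did not overlap the next, and F344 hyperoxia of day 5 was the lowest at 8.88.

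On day 5 all 6 genes had a negative difference in each strain, with a median of −0.21 in SD and −0.31 in F344. Over all genes 48.7% of differences were negative in SD and 48.5% in F344. Without SD room air replicate 1 the SD differences of Slc2a1, Slc2a3, Slc16a1 and Bsg became 0.01, 0.13, 0.21 and 0.00. Those of Slc16a3 and Slc16a7 stayed below 0 whichever array was left out. In F344 the Bsg difference became 0.13 without room air replicate 2. Hyperoxia arrays lay below room air without overlap for 2 of 6 members in SD, against 21.5% of all genes, and for 3 of 6 in F344, against 20.3%. On day 6 the median was 0.33 in SD and 0.08 in F344. Hyperoxia arrays lay above room air without overlap for 3 of 6 members in SD, against 25.3% of all genes, and for 1 of 6 in F344, against 20.7%. Without the array that stood apart the F344 median was 0.28, an alternative chosen after seeing the data. At an unadjusted p under 0.05 the averaged oxygen effect held 2 members on day 6, against 23.9% of all genes, and 3 on day 5, against 11.2%.

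The stretch of DNA around the RefSeq start of Slc16a3 is shown because it is the member whose RNA changed, and those of Slc2a1 and Bsg because theirs were not called. Each window runs from 250 bases before to 50 bases after the gene's start, in RefSeq's rat assembly GRCr8: chr10:106712078-106712377 on the plus strand for Slc16a3, chr5:138002272-138002571 on the plus strand for Slc2a1 and chr7:10650956-10651255 on the minus strand for Bsg. Capitals mark the core letters of the HIF binding motif, ACGTG or GCGTG, searched on both strands (CACGT or CACGC where they lie on the other strand; CACGTG counts on each).
Slc16a3: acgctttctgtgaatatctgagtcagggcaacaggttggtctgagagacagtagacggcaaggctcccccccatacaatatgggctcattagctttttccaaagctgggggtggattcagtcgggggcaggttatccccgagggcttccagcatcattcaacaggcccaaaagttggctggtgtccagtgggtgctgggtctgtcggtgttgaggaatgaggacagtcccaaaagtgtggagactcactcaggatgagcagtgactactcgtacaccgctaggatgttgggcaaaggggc
Slc2a1: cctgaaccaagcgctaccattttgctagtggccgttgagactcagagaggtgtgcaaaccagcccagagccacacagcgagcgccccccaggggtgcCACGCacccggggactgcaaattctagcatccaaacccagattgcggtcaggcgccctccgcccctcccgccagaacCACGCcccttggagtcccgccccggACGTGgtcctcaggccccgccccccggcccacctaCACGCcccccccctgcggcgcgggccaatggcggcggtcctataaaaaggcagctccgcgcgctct
Bsg: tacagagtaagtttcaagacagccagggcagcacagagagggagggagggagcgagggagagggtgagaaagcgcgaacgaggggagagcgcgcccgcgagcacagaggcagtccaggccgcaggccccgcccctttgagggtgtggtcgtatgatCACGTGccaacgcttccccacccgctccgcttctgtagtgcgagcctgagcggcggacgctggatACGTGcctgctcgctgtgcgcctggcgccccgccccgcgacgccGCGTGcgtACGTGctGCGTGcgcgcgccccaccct
The core letters occurred 0 times in the Slc16a3 window, 4 times in that of Slc2a1 and 6 times in that of Bsg. The windows of Slc16a1 (4 matches) and Slc16a7 (1 match) lie at a transcript start inside the annotated span of the gene and not at its outer end, and Slc2a3 was not used here. Of 33469 promoter windows of the same length, 41.6% held at least 1 match, 3.46% at least 4 and 0.63% at least 6, and the GC content was 54.3% for Slc16a3, 68.3% for Slc2a1 and 69.0% for Bsg, against a median of 51.7%. A match of these letters is a description of the window and not a binding site, and an empty window says only that the letters are not in these 300 bases.

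Other transporters of the same families, from a list of further glucose and monocarboxylate carriers, gave no calls with oxygen. Of 28 listed genes 22 were measured, and 16 of these had a mean below the lowest array median, where little can be seen. Limma called 0 of 22 in any oxygen contrast. Averaged over strains their differences ran from −0.32 (Slc16a13) to 0.19 (Slc2a6) on day 6 and from −0.27 (Slc16a6) to 0.29 (Slc2a6) on day 5. An unadjusted p under 0.05 was found for 2 on day 6, against 23.9% of all genes, and for 1 on day 5, against 11.2%. The basigin relatives Emb, which accompanies MCT2, and Nptn were not called either, with 0.14 and −0.24 on day 6 and −0.08 and −0.12 on day 5.

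Of 15 measured glycolytic enzymes, which feed the lactate pool, 6 were called lower and 0 higher on day 5, averaged over both strains. Over all genes 0.209% were called lower and 0.0% higher. All 15 differences were negative, against 47.1% over all genes, and the median was −0.48. Hk2, the hexokinase that traps glucose, had −1.40 (adjusted p = 0.0452), and Pfkfb3, which makes the activator of phosphofructokinase, −1.07 (4.31e-05). The phosphofructokinase subunits Pfkp and Pfkl had −0.73 (0.0112) and −0.55 (0.028), the isomerase Gpi −0.60 (0.00142) and the kinase Pgk1 −0.59 (0.0141). On day 6 the median was 0.01 and 1 of 15 was called higher, against 4.01% of all genes, Pfkl with 0.38 (adjusted p = 0.034; 0.39, adjusted p = 0.0649, without the array that stood apart). The effect differed between the days for 3 of the 15, against 0.182% of all genes, with day 6 minus day 5 differences of 1.34 for Pfkfb3 (adjusted p = 0.000142), 0.93 for Pfkl (0.00578) and 0.78 for Pgk1 (0.0293). Without the array that stood apart these were 1.39, 0.94 and 0.85, all called. Of the fits that left out 1 array, Pfkfb3 and Gpi kept their day 5 calls in all 16, Pfkp and Pgk1 in 11, Pfkl in 6 and Hk2 in 5. The day difference was called in 16 such fits for Pfkfb3 and Pfkl and in 6 for Pgk1, and the averaged day 6 effect of Pfkl in 8. Within SD, a contrast that holds no F344 array, Pfkl was also called higher on day 6 (0.61). It was 1 of 15 enzymes, against 2.23% of all genes, and this call was lost in some such fits.

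At the fork between lactate and the mitochondrion, Pdk1 was the enzyme that changed most clearly. This kinase holds back pyruvate dehydrogenase. Its averaged oxygen effect was 0.39 on day 6 (limma, adjusted p = 0.0128) and −0.86 on day 5 (4.31e-05), and the difference between them was 1.25 (4.03e-05). Ldhb, the lactate dehydrogenase subunit typical of oxidative tissue, was higher on day 6 by 0.40 (adjusted p = 0.0406) when averaged over strains and by 0.69 in SD (0.0286). On day 5 its means were also higher in hyperoxia, without a call, at 7.52 against 7.25 in SD and 7.97 against 7.70 in F344. Ldha, the subunit typical of glycolytic cells, had −0.37 on day 5 without a call (adjusted p = 0.111). These were 2 of 12 measured genes of pyruvate and lactate handling called higher on day 6, against 4.01% of all genes, and 1 called lower on day 5, against 0.209%. Without the array that stood apart the averaged day 6 values were 0.41 for Pdk1 (adjusted p = 0.0242) and 0.50 for Ldhb (0.0269). Without single arrays Pdk1 was called in all 16 fits on day 5 and for the day difference and in 14 on day 6, and Ldhb in 7 for the average and 13 for SD.

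**Figure D3:**
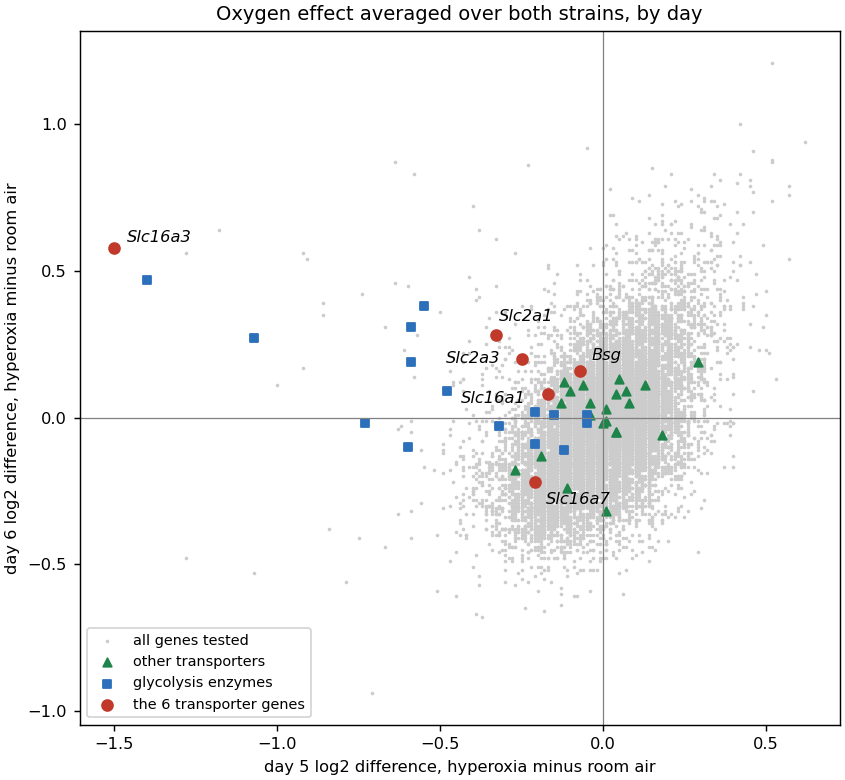
Oxygen effect averaged over both strains (log2 difference, hyperoxia minus room air) on day 5 (horizontal axis) and day 6 (vertical axis). Grey dots are all genes tested, green triangles other glucose and monocarboxylate transporters, blue squares glycolytic enzymes and red circles the 6 genes. Slc16a3 lies at −1.50 on day 5 and 0.58 on day 6, and the other 5 genes lie between −0.33 and −0.07 on day 5.

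Genes that regulate glucose uptake and proton balance were mostly not called. Of 6 uptake regulators, Prkaa2, a catalytic subunit of AMP-activated kinase, was the 1 called lower on day 6 (−0.41, adjusted p = 0.0218), against 2.73% of all genes, and Txnip, an arrestin that restrains GLUT1, was not called. Of 7 measured carbonic anhydrases and proton carriers, Car2 was the 1 called higher on day 6 (0.28, adjusted p = 0.0453), against 4.01% of all genes. These lists were not tested against all genes, and both calls were lost without the array that stood apart (Prkaa2 −0.32, adjusted p = 0.0718; Car2 0.30, 0.068). Neither list held a called gene on day 5. In the averaged day 5 effect 4 of 6 uptake regulators had an unadjusted p under 0.05, against 11.2% of all genes. Their differences went either way, with 3 of 6 negative. In the averaged day 6 effect Prkaa2 was called in 11 and Car2 in 5 of 16 fits that left out 1 array. Within SD, a contrast that holds no F344 array, Prkaa2 was also called lower on day 6 (−0.58). It was 1 of 6 regulators, against 0.565% of all genes, and this call was lost in some fits that left out 1 array.

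Over the 8 group means, the genes whose pattern was most like that of Slc16a3 were Pdk1 (Pearson's r = 0.983), Vegfa (0.98), Tpi1 (0.975) and Ankrd37 (0.971). For Slc2a1 they were Igfbp2 (0.947), Acad10 (0.935), Cox4i2 (0.914) and Dguok (0.908), and for Slc2a3 Gapdh (0.948), P4ha2 (0.943), Bhlhe40 (0.936) and Egln3 (0.933). For Slc16a1 they were Ogn (0.904), Aptx (0.884), Slc7a11 (0.876) and Has2 (0.874). For Slc16a7 they were Sec23a (0.991), Tcaim (0.987), Msh3 (0.982) and Pde4b (0.979), and for Bsg Grtp1 (0.962), C1qc (0.956), Rhobtb2 (0.943) and RT1-CE15 (0.943). The likeness was taken over 8234 genes with a mean above the lowest array median, the points share their arrays and normalization, and high values among so many genes over 8 points are a description only. Without the array that stood apart the r of these named genes stayed between 0.975 and 0.984 for Slc16a3 and lay between 0.84 and 0.992 for the others. Among the members themselves r was 0.86 between Slc16a3 and Slc2a3, 0.79 between Slc16a3 and Slc2a1, and 0.90 between Bsg and Slc2a3, while Slc16a7 correlated with the others between −0.48 and 0.35.

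Markers of blood vessels moved with hyperoxia as well. Of 17 measured endothelial markers, 5 were called lower on day 5 when both strains were averaged, against 0.209% of all genes, and all 17 differences were negative, against 47.1% (median −0.29). The 5 include Adgrl4 (−0.75), Tek (−0.79), Slco1c1 (−1.07) and Adgrf5 (−0.84). Without single arrays Adgrl4 and Tek were called in all 16 fits, Adgrf5 in 12 and Slco1c1 in 11. On day 6, 4 were called lower (median −0.19), where 2.73% of all genes were, among them Tek (−0.56) and Emcn (−0.47), and these 4 lay between −0.46 and −0.37 and remained called without the array that stood apart. The summed linear level of the 17 on day 6 was 496 to 505 in SD hyperoxia against 617 to 652 in SD room air, and 495 to 618 in F344 hyperoxia against 594 to 600 in F344 room air. On day 5 it was 443 to 451 in SD hyperoxia against 571 to 605 in SD room air, and 438 to 444 in F344 hyperoxia against 520 to 646 in F344 room air. Array values hold background and none is 0, and 16 of the 17 had a mean below the lowest array median. Their part in the transporter results was not tested. The pericyte, Müller glia, astrocyte, neuron, pigment epithelium, erythroid and lens lists held 54 measured genes. Limma called 0 of these in the averaged oxygen effect of either day. An unadjusted p under 0.05 was found for 8 on day 6, against 23.9% of all genes, and for 11 on day 5, against 11.2%. Of these 11, 5 were among the 8 pericyte markers. On day 5, 7 of the 8 pericyte differences were negative, against 47.1% of all genes (median −0.24). In the averaged day 6 effect 1 of 10 rod markers was called higher (Nrl, 0.32) and 2 of 11 microglial markers (C1qa, 0.53; Aif1, 0.29), against 4.01% of all genes. The other members of these lists went either way, with 4 of 10 and 5 of 11 negative and medians of 0.05 and 0.06. Without single arrays Nrl was called in 9, C1qa in 13 and Aif1 in 8 of 16 fits, and Aif1 was not called without the array that stood apart.

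Between the strains in room air, no member was called, where 9.35% of all genes were, and 3 of 6 had an unadjusted p under 0.05, against 23.4%. Slc2a1 came nearest. Its room air arrays read 9.56 and 9.08 (day 6) and 9.73 and 9.16 (day 5) in SD, against 9.79 and 9.80 (day 6) and 9.64 and 10.23 (day 5) in F344. The SD minus F344 difference was −0.48 ± 0.15 (SE, interval −0.79 to −0.17, limma, adjusted p = 0.051), and the call was made in 5 of 16 fits that left out 1 array. The SD arrays lay below the F344 arrays without overlap on day 6, as for 27.1% of all genes, and overlapped them on day 5. Slc16a7 had an SD minus F344 difference of 0.29 (0.09 to 0.50, adjusted p = 0.0668) and Slc16a3 one of −0.43 (adjusted p = 0.114). Of the other transporters, Slc2a6 was lower in SD (−0.65, adjusted p = 0.0288, called in 11 of 16 fits that left out 1 array). In SD room air replicate 1 read higher than replicate 2 on both days for Slc2a1, Slc2a3, Slc16a1, Slc16a3 and Bsg. How many of all genes did so was not counted, and these arrays are also the controls of the SD oxygen effects. Markers of several cell types moved with strain in room air: called higher in SD were 5 of 10 rod markers, 3 of 11 neuron markers (1 lower), Vim of 8 Müller glia markers and S100b of 6 astrocyte markers, and called lower were Ttr of 9 pigment epithelium and Hbb of 7 erythroid markers, against 9.35% of all genes called either way. The summed linear level of the rod list was 14270 to 15504 in SD against 10482 to 11607 in F344 on day 6, and 11177 to 11993 in SD against 8127 to 8994 in F344 on day 5. The part of these markers in the transporter differences was not tested. Between the days in room air, limma called 0 of 6 members, also at an unadjusted p under 0.05, where 3.0% of all genes were called and 15.2% had an unadjusted p under 0.05. The nearest was Bsg, with a day 6 minus day 5 difference of 0.22 (interval 0.00 to 0.44, adjusted p = 0.333).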

How the data were processed

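RNA of retinae was hybridised to 16 single-colour rat gene arrays. The authors deposited log2 expression values of 27342 probe sets, made with Partek 6.4 and RMA per the submitters' processing notes. RMA corrects background, quantile-normalizes and summarises probes, so a shift common to most genes is removed and low levels are compressed. The design text speaks of 3 rats from 2 litters for the pools, in wording that does not settle the make-up of each.

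Probe sets with 1 symbol (15097) were named through the platform annotation, 15067 of them updated by Entrez identifier to RefSeq GRCr8, and for 499 genes with several sets the highest mean was taken, leaving 14324 genes. Promoter windows come from RefSeq. The test was limma (version 3.58.1, R 4.3.3), with 1 mean per group over all 16 arrays (8 residual and 7.41 prior degrees of freedom), two-sided, Benjamini-Hochberg adjustment over all genes, called at an adjusted p under 0.05. The fit was tested on simulated data. Intervals are 95% intervals of the moderated test, unadjusted for the number of genes, and folds are ratios of geometric means. The number of arrays limits the precision.

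The members, lists and tests were chosen with earlier results of these data known. Named genes are the members, the 4 genes most like each over the 8 group means, the called genes of each list (up to 6) and up to 4 called markers. Alternatives were every probe set on its own, the mean of a gene's sets, a filter on low values, median centring, repeated quantile normalization, arrays of the same day only, array weights, robust empirical Bayes with a trend, replicate number as a block, and leaving out each array.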

Additional observations from a re-analysis of the deposited data

Results flagged for a closer look

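In the day 6 minus day 5 difference of the oxygen effect 26 of 14324 genes were called, of which 5 belong to the transporters and the listed metabolic genes described above. For these 5 the oxygen effect, averaged over strains, differed between the days in the test of the difference itself (limma, day 6 minus day 5, Benjamini-Hochberg over all genes). The differences on the log2 scale were 2.08 for Slc16a3, 1.34 for Pfkfb3, 1.25 for Pdk1, 0.93 for Pfkl and 0.78 for Pgk1. All 5 were positive, as were all 26 genes called in this contrast. The averaged effects of these 5 were below 0 on day 5. The labels do not say which oxygen level preceded each day, and a dependence on it was not tested. As the level alternated every 24 h, that level and the day changed together in the hyperoxia groups, and their parts cannot be told apart.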

How the results depend on the processing

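Leaving out each array in turn leaves 1 array in a group, which is then assumed to vary like the other groups. Differences of members that changed sign in such fits were small and not called, with these lowest and highest values. The F344 day 5 effect spanned Bsg −0.29 to 0.13. The SD day 5 effect spanned Slc2a1 −0.56 to 0.01, Slc2a3 −0.53 to 0.13, Slc16a1 −0.29 to 0.21, Bsg −0.11 to 0.00. The F344 day 6 effect spanned Slc2a1 −0.04 to 0.20, Slc2a3 −0.30 to 0.45, Slc16a7 −0.30 to 0.05, Bsg −0.16 to 0.12. The SD day 6 effect spanned Slc16a1 −0.30 to 0.14. The averaged day 5 effect spanned Bsg −0.17 to 0.04. The averaged day 6 effect spanned Slc16a1 −0.03 to 0.19. The day difference of the effect spanned Slc16a7 −0.10 to 0.07. The strain difference of the day 5 effect spanned Slc2a1 −0.18 to 0.41, Slc2a3 −0.22 to 0.44, Slc16a3 −0.42 to 0.11, Slc16a7 −0.15 to 0.10, Bsg −0.18 to 0.24. The strain difference of the day 6 effect spanned Slc2a3 −0.13 to 0.62. The room air strain difference spanned Slc2a3 −0.20 to 0.13, Slc16a1 −0.10 to 0.15, Bsg −0.15 to 0.06. The room air day difference spanned Slc2a1 −0.28 to 0.02, Slc2a3 −0.06 to 0.27, Slc16a1 −0.18 to 0.07, Slc16a3 −0.18 to 0.12. When quantile normalization was repeated, the F344 day 6 effect on Bsg turned to 0.02 and the room air day difference of Slc16a3 to 0.00. The count of members called in the SD day 6 effect was 1 (Slc16a3) with the filter on low values, repeated quantile normalization or array weights, and 0 to 1 without single arrays. In the averaged day 6 effect it was 0 with every probe set on its own, median centring, array weights, the replicate block or arrays of the same day only, and 0 to 1 without single arrays. For Slc16a3 the adjusted p in these 5 settings was 0.0552, 0.0596, 0.0741, 0.0541 and 0.0665. In the room air strain difference it was 1 with the filter on low values, repeated quantile normalization or robust empirical Bayes with a trend, 2 with array weights, and 0 to 2 without single arrays. In the SD and F344 day 5 effects it was 0 to 1 without single arrays. The averaged day 5 effect and the day difference kept Slc16a3 called in all fits run, with differences of −1.63 to −1.36 and 1.93 to 2.22 without single arrays. The mean of all probe sets leaves the members' values as they are. Counts over all genes moved more: 53 to 2829 without single arrays and 396 to 1411 in the other settings for the averaged day 6 effect, 0 to 994 and 81 to 800 for SD on day 6, 0 to 1621 and 0 to 199 for F344 on day 6, 14 to 54 and 26 to 58 for the averaged day 5 effect, 0 to 15 and 9 to 28 for SD on day 5, 4 to 19 and 8 to 21 for F344 on day 5, 18 to 66 and 21 to 32 for the day difference, 0 to 181 and 0 to 14 for the strain difference on day 6, 0 to 2 and 0 to 0 for that on day 5, 615 to 1844 and 1187 to 1840 for the room air strain difference, and 92 to 676 and 327 to 545 for the room air day difference. Replicate numbers were not treated as pairs, and the labels do not tie them to a litter or batch. Over 28 pairs of groups the deviations correlated between −0.29 and 0.52, with 8 pairs over 0.1 and 16 below 0. A structure shared by some groups is therefore not excluded. With the replicate block the averaged day 6 effect on Slc16a3 was 0.58 and lost its call. Alternatives for other listed genes were chosen after seeing the data. The cause of these changes was not tested.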

Other observations

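In the room air strain contrast (SD minus F344, limma, adjusted over all genes), in which 9.35% of all genes were called, a few genes of the metabolic lists were among the calls. The lists were not tested against all genes. Ldhb, a lactate dehydrogenase subunit, was lower in SD (−0.51, adjusted p = 0.00903), and Pdha1, a subunit of pyruvate dehydrogenase, was higher (0.49, 0.0255), 2 of 12 genes of pyruvate and lactate handling. Gipc1, an adaptor that binds GLUT1, was lower (−0.41, 0.00709), and Prkaa1, a catalytic subunit of AMP-activated kinase, was higher (0.32, 0.0439), 2 of 6 uptake regulators. Car4, a membrane-bound carbonic anhydrase, was higher (0.59, 0.000925), 1 of 7. Ldhb, Gipc1 and Car4 were called in all 16 fits that left out 1 array, Pdha1 in 11 and Prkaa1 in 5.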
